A study of Danio rerio with 6 samples.

Results

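Purine nucleoside phosphorylases were examined in zebrafish larvae exposed to Lurasidone. The 5 genes pnp4a, pnp4b, pnp5a, pnp5b and pnp6 were taken by their symbol from a table of 39214 genes, and all 5 passed the filter on low values, which required at least 0.5 FPKM (fragments on a gene, scaled by gene length and library size) in at least 3 libraries and left 23409 genes. They were selected with their measured difference between exposed and control larvae in view, pnp5a above all. Their values in that comparison are therefore given as a description, with no test.

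A purine nucleoside phosphorylase cleaves a purine nucleoside such as inosine or guanosine with phosphate, and it releases the free base and ribose phosphate. The base can be returned to nucleotides by the salvage pathway or be broken down to uric acid and further. In zebrafish, guanine crystals give the iridophores (the silvery pigment cells) their shine, and pnp4a is a known iridophore gene.

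RNA-seq was carried out on AB wild-type larvae at 5 dpf. The control group held 3 libraries, and by the methods its larvae received the solvent DMSO. The Lurasidone group held 3 libraries of larvae kept in 4 mg/L of Lurasidone, an antipsychotic drug, from 3 hpf by the sample labels and from 5 hpf by the methods. Both groups were otherwise raised alike, and the comparison asked which transcripts of the larva changed with the exposure. The number of larvae behind a library is not given in the sources used here, so an error or p-value below measures the spread between these libraries. By the methods, whole larvae were collected, while the RNA is said to come from brain tissue. Markers of muscle, liver, gut, pigment cells and neurons were all detected, for instance ckmb of muscle at a mean of 1857 FPKM and the liver gene tfa at 302 FPKM in control. In such mixed RNA, fewer cells of a type and less RNA per cell cannot be told apart.

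The libraries held 11749887 to 15107664 fragments on genes. Control replicate 2 stood apart in its share of mitochondrial fragments, 1.41% against 3.60 to 4.26% in the other 5 libraries. Its summed fragments came to 104% of the total by which its FPKM had been scaled, against 84.5 to 98.2% in the others. All 5 genes lay above the limit of 3 fragments in every library, and the lowest count was 19 fragments, for pnp6 in control replicate 1.

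Of the 5 phosphorylases, pnp5a was the one for which the study lists RT-qPCR primers. Both are shown, 5′ to 3′, because they define the piece of pnp5a that was chosen as a second readout in the study.
pnp5a forward primer: ggtgtggagacggtgattct
pnp5a reverse primer: aacctttcgtcgttgtgtcc
Each primer has 20 bases. The GC content is 55.0% for the forward and 50.0% for the reverse primer. Their place in the gene was not mapped here.

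The transcript of pnp5a was higher in every Lurasidone library than in any control library. The gene (ENSDARG00000078619) lies on chromosome 7, bases 6652967 to 6668424 of the plus strand in GRCz11, and the table gave it a length of 3076 bases. Its level was 19.5, 22.5 and 17.8 FPKM in control replicates 1 to 3, from 923, 814 and 797 fragments. In Lurasidone replicates 1 to 3 it was 61.0, 71.2 and 37.2 FPKM, from 2506, 2936 and 1515 fragments. The controls lay close together, whereas Lurasidone replicate 3 stood well below the other 2 exposed libraries and still above all controls. The mean was 19.96 ± 2.39 FPKM (SD, n = 3) in control and 56.4 ± 17.4 FPKM (SD, n = 3) with Lurasidone, a ratio of 2.83. On the log2(FPKM + 1) scale the difference was 1.41 (SE 0.23). Among all tested genes ordered by mean FPKM, pnp5a moved from percentile 87.8 in control to percentile 96.3. The gene dusp19b (a dual specificity phosphatase by its name) runs across the whole span of pnp5a on the opposite strand, and whether strand was used in the counting is not given. It was at most 1.67 FPKM in any library, and the mean of dusp19b was 1.20 FPKM in control and 1.52 FPKM with Lurasidone.

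The second gene with separate groups was pnp4a (ENSDARG00000057575, chromosome 11, bases 24251141 to 24299538, plus strand, length 4524 bases). It was measured at 6.64, 5.44 and 5.63 FPKM in control and at 9.71, 11.4 and 8.08 FPKM with Lurasidone. The 3 exposed libraries were all above the 3 controls, by less than for pnp5a. The counts behind these levels were 289 to 462 fragments in control and 484 to 693 with Lurasidone. The means were 5.90 ± 0.642 and 9.74 ± 1.67 FPKM (SD, n = 3 each), a ratio of 1.65, and the difference was 0.63 (SE 0.17) on the log2(FPKM + 1) scale. An uncharacterised model, si_dkey-76p14.2, shares 1107 bases with the end of pnp4a on the same strand. It held at most 6 fragments in a library.

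In both pnp5a and pnp4a the order of the exposed libraries was the same, with replicate 2 highest and replicate 3 lowest. The same order held in pnp4b, whose groups overlapped, so it was not particular to the genes with separate groups. Of all 23409 tested genes, 17.1% had every Lurasidone library above every control library, and 16.2% had every one below. The 2 of 5 phosphorylases in the first class were known to be there when the genes were chosen, so nothing is read from that count.

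The most abundant phosphorylase of the control larvae was pnp4b (ENSDARG00000029230, chromosome 16, bases 36807924 to 36834633, minus strand, length 1654 bases). Its level was 38.2, 55.6 and 30.8 FPKM in control and 35.7, 39.1 and 31.0 FPKM with Lurasidone. The exposed libraries fell inside the range of the controls, and the spread of the controls came from the high value of control replicate 2. The means were 41.5 ± 12.8 and 35.3 ± 4.07 FPKM (SD, n = 3 each), and the log2 difference was -0.20 (SE 0.22). Without control replicate 2 it was 0.032, of the opposite sign. An uncharacterised gene model on the other strand spans all of pnp4b and was measured at 1.23 to 2.52 FPKM.

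The paralog nearest to pnp5a by name, pnp5b (ENSDARG00000099802, chromosome 2, bases 58186846 to 58201173, minus strand, length 1138 bases), had a lower mean with Lurasidone, but its groups overlapped. The control libraries gave 12.6, 16.2 and 7.50 FPKM and the Lurasidone libraries 8.75, 7.21 and 8.29 FPKM. Control replicate 3 lay among the exposed libraries, while control replicates 1 and 2 lay above them. The means were 12.1 ± 4.39 and 8.08 ± 0.790 FPKM (SD, n = 3 each). The log2 difference of -0.48 (SE 0.24) became -0.76 without control replicate 3 and -0.25 without control replicate 2.

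The least abundant was pnp6 (ENSDARG00000040942, chromosome 18, bases 21257261 to 21271373, minus strand, length 1984 bases). It was measured at 0.622, 1.29 and 2.08 FPKM in control and at 1.96, 1.80 and 2.85 FPKM with Lurasidone. The groups overlapped, since control replicate 3 was above 2 of the exposed libraries. The means were 1.33 ± 0.731 and 2.21 ± 0.566 FPKM (SD, n = 3 each), and the log2 difference was 0.49 (SE 0.25), a scale that understates the change of so low a gene. Without control replicate 1 it was 0.26. The counts were 19 to 60 fragments in control and 48 to 75 with Lurasidone, the fewest of the 5 genes.

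**Figure D1:**
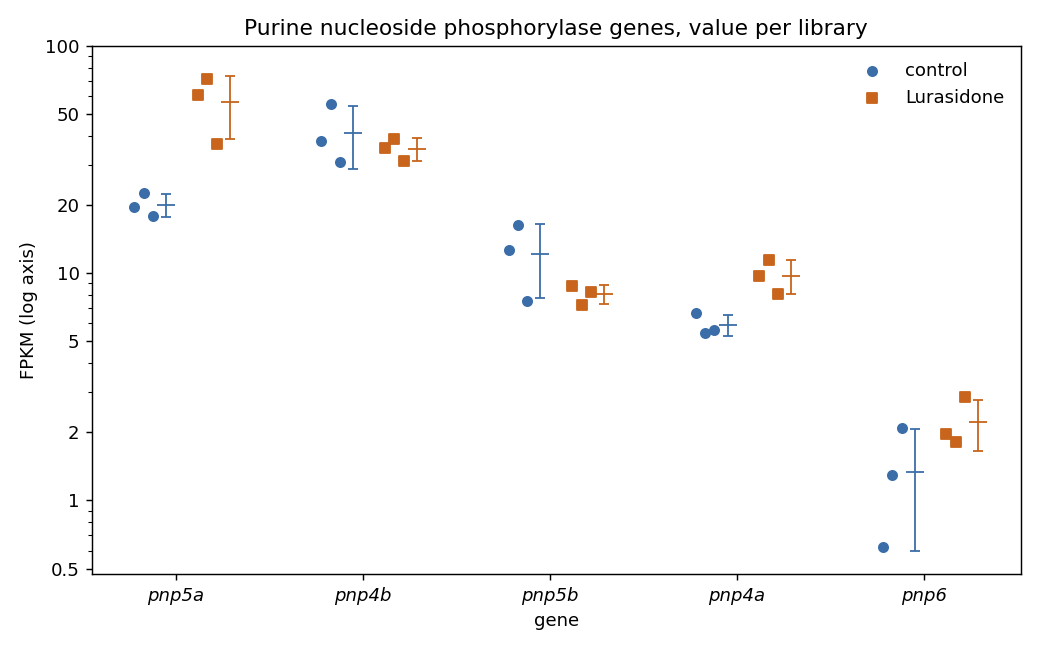
FPKM on a log axis for each of the 5 phosphorylase genes, with 1 point per library (circles control, squares Lurasidone) and, beside them, the mean with its SD (n = 3). The squares of pnp5a (37.2 to 71.2 FPKM) and of pnp4a (8.08 to 11.4 FPKM) lie above all of their circles, and the groups of pnp4b, pnp5b and pnp6 overlap.

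A further gene model stood beside pnp6 in the table. The authors' annotation held 4321 gene models on alternate contigs, which are second versions of stretches of the chromosomes. One of them, without a symbol, lies on an alternate contig of chromosome 18 at bases 21254289 to 21268186, on the minus strand as pnp6 does, and carries the same phosphorylase domain annotation. It held 63, 42 and 139 fragments in control and 68, 128 and 50 with Lurasidone. The pnp6 row held 23.2, 41.7 and 30.2% of the summed fragments of both models in control and 43.3, 27.3 and 60.0% with Lurasidone. The division between the models thus varied from library to library inside each group. The summed level was 2.87, 3.25 and 7.34 FPKM in control and 4.76, 7.05 and 4.93 FPKM with Lurasidone, and control replicate 3 became the highest of all. The log2 difference of the sum was 0.33 (SE 0.29), computed after the data had been seen. The other 4 phosphorylases had no such second model within 100000 bases of their start.

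The order of the levels differed between the groups. In control it was pnp4b, pnp5a, pnp5b, pnp4a and pnp6 from high to low, and the ranges of neighbours in that order did not overlap. With Lurasidone, pnp5a was the highest in each of the 3 libraries, although its lowest value (37.2 FPKM) was below the highest value of pnp4b (39.1 FPKM in another library). The ranges of pnp4a (8.08 to 11.4 FPKM) and pnp5b (7.21 to 8.75 FPKM) overlapped, so their order with Lurasidone was not beyond their spread. In both groups pnp6 was lowest in each library.

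Set against its paralogs within each library, pnp5a held a larger share in each exposed library than in any control library. It made up 25.1, 22.3 and 27.9% of the summed FPKM of the 5 genes in control and 52.1, 54.5 and 42.5% with Lurasidone. The mean share was 25.1 ± 2.83% (SD, n = 3) and 49.7 ± 6.31% (SD, n = 3). The share of pnp4b was 49.2, 55.0 and 48.2% in control and 30.5, 29.9 and 35.5% with Lurasidone. The share of pnp5b was 11.8 to 16.3% in control and 5.51 to 9.49% with Lurasidone. A larger share of pnp5a by itself lowers the other shares, and the FPKM of pnp4b and of pnp5b overlapped between the groups. The shares of pnp4a (5.38 to 8.82% and 8.29 to 9.24%) and pnp6 (0.80 to 3.26% and 1.38 to 3.27%) overlapped between the groups.

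The sum of the 5 genes was 77.6, 101 and 63.9 FPKM in control and 117, 131 and 87.4 FPKM with Lurasidone. Lurasidone replicate 3 lay below control replicate 2, so the sums overlapped. Without pnp5a the other 4 genes summed to 46.0 to 78.6 FPKM in control (mean 60.9) and 50.2 to 59.5 FPKM with Lurasidone (mean 55.3), the exposed libraries inside the control range. The ratio of pnp5a to pnp4b was 0.511, 0.405 and 0.579 in control and 1.71, 1.82 and 1.20 with Lurasidone, below 1 in each control and above 1 in each exposed library. The ratio of pnp5a to pnp5b went from a mean of 1.77 ± 0.532 (SD, n = 3) to 7.11 ± 2.70 (SD, n = 3). The log2 difference of pnp5a exceeded the mean of the log2 differences of its 4 paralogs by 1.30.

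**Figure D2:**
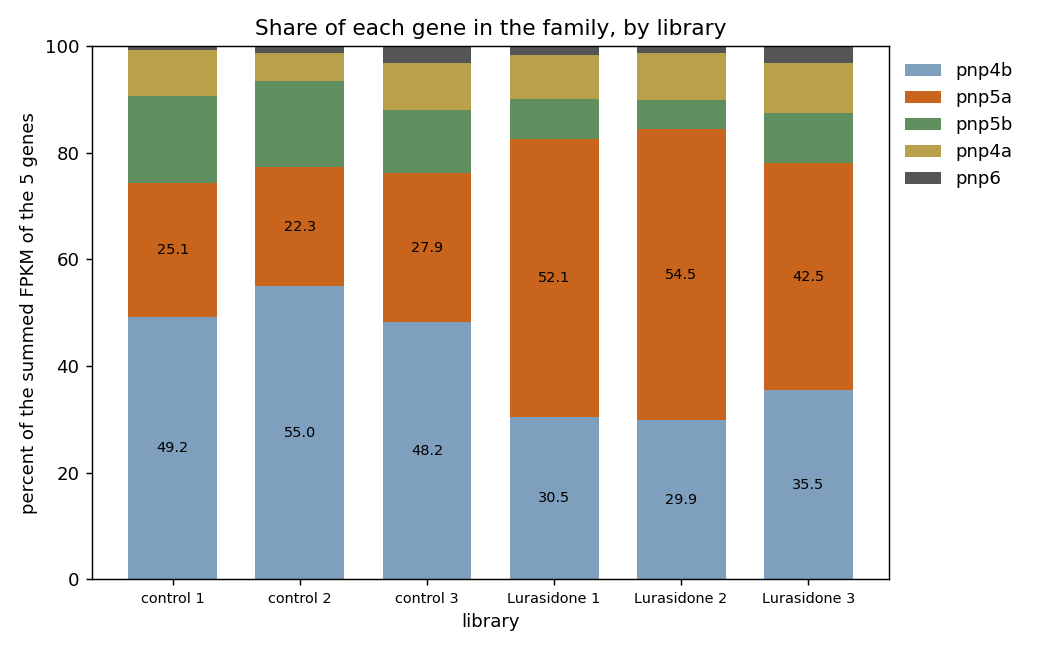
Stacked bars, starting at 0, of the percent of the summed FPKM of the 5 phosphorylases held by each gene, with 1 bar per library and the values of pnp4b and pnp5a printed in it. The bar of pnp5a takes 22.3 to 27.9% in control and 42.5 to 54.5% with Lurasidone.

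The genes whose pattern over the 6 libraries was nearest to that of pnp5a were sought by the root mean square distance of log2(FPKM + 1), each gene centred on its mean. The nearest protein-coding genes with a symbol were tcap (0.134), elovl6l (0.135), ccr9a (0.143), vsig8b (0.146) and si_dkey-238k10.1 (0.157). The first, tcap, encodes telethonin of the muscle sarcomere, elovl6l a fatty acid elongase and ccr9a a chemokine receptor. The level of tcap was 24.9, 26.9 and 19.2 FPKM in control and 84.5, 77.3 and 40.6 FPKM with Lurasidone. The third exposed library was the lowest of its group as in pnp5a, a likeness that a search by pattern selects for. The other neighbours were far less abundant, and elovl6l reached 6.91 FPKM at most. Their ratios of mean FPKM were larger than the 2.83 of pnp5a, at 3.66 for elovl6l, 4.33 for ccr9a, 5.16 for vsig8b and 4.90 for si_dkey-238k10.1. The added 1 FPKM shrinks the log2 difference of low genes, so their likeness to pnp5a holds on that scale only. The paralogs were farther away, pnp4a at 0.442 with 893 tested genes nearer, pnp6 at 0.694, pnp4b at 0.837 and pnp5b at 1.02 with 20105 tested genes nearer. Both counts include pnp5a itself. These distances describe a likeness over 6 libraries that fall into 2 groups.

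The table assigned the phosphorylase superfamily domain to 9 rows, namely the 5 genes, the model on the alternate contig and the 3 relatives mtap, upp1 and upp2. The gene mtap, whose enzyme cleaves methylthioadenosine formed in polyamine synthesis, was at 8.51, 10.8 and 9.22 FPKM in control and 14.9, 13.2 and 12.6 FPKM with Lurasidone. Its groups did not overlap, but the log2 difference of 0.47 (SE 0.16) did not pass the limma test (Benjamini-Hochberg adjusted p = 0.0862 over all tested genes). The uridine phosphorylase upp2 was at 1.19, 0.674 and 1.36 FPKM in control and 3.40, 3.80 and 1.38 FPKM with Lurasidone. Its groups did not overlap, by 1.38 against 1.36 FPKM, as in the 17.1% of all tested genes with every exposed library above every control. The gene upp2 did not pass the limma test either, with a log2 difference of 0.85 (SE 0.28) and an adjusted p of 0.0835. The other uridine phosphorylase, upp1, gave 0.19 (SE 0.22, limma adjusted p = 0.601).

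The enzymes and transporters around the phosphorylases were followed in 6 lists of 73 symbols, of which 66 had a row and 60 passed the filter. Of these 60, 7 were higher and 2 lower with Lurasidone at an adjusted p of at most 0.05, and 51 did not pass the test. That is 11.7% higher and 3.33% lower, beside 5.79% higher and 3.9% lower among all tested genes. For the counts at an unadjusted p under 0.05 given below, the shares over all tested genes were 14.1% higher and 14.1% lower. Limma voom on the fragments, also counted below, called 1868 higher and 1006 lower of the 23409 genes. The median log2 difference of the 60 genes was 0.165, against -0.015 over all tested genes. Adjusted p-values below are those of the main limma fit with Benjamini-Hochberg adjustment over all 23409 genes, unless another fit is named. For an alternative fit, such as with a library left out or alternate contig models added, the adjustment was over the genes of that fit. Pathway genes beyond the 3 with the smallest adjusted p per list and direction were chosen for mention after their values were seen.

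Among the genes of de novo purine synthesis, which builds the purine ring, 2 of 9 tested genes were lower and 0 were higher by limma. At an unadjusted p under 0.05 there were 4 lower and 0 higher, and voom on the fragments called 3 lower and 0 higher, with pfas as the third. The median log2 difference was -0.38, and 8 of 9 lay below 0. The gene paics, whose enzyme performs a pair of middle steps of the pathway, was at 190, 244 and 149 FPKM in control and 82.6, 80.6 and 70.4 FPKM with Lurasidone. It fell by 1.28 on the log2 scale (SE 0.20, adjusted p = 0.0067), and the groups were far apart. The gene atic, for the last steps to inosine monophosphate, was at 70.6, 79.6 and 56.8 FPKM in control and 37.3, 43.8 and 36.9 FPKM with Lurasidone (log2 difference -0.79, SE 0.17, adjusted p = 0.0240). This call was lost without any 1 of 4 libraries (control replicates 1 and 2, Lurasidone replicates 1 and 3), with adjusted p from 0.056 to 0.098. The genes pfas (-0.67, adjusted p = 0.0688), ppat (-0.46, adjusted p = 0.0981) and gart (-0.36, adjusted p = 0.487) did not pass the test.

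The genes that convert inosine monophosphate, AMP and GMP into one another had 4 of 16 tested members higher and 0 lower by limma, with a median log2 difference of 0.29. At an unadjusted p under 0.05 there were 6 higher and 3 lower, and voom called 6 higher and 0 lower. The gene ampd1, for an AMP deaminase that is the muscle form in mammals, was at 170, 127 and 142 FPKM in control. With Lurasidone it was at 530, 586 and 510 FPKM, a log2 difference of 1.89 (SE 0.19, adjusted p = 0.000876). This was the largest difference of the 60 genes on the log2(FPKM + 1) scale, and the exposed libraries lay closely together. By the ratio of mean FPKM, the far less abundant ampd3b (3.85) stood above ampd1 (3.71). The controls of ampd3b were at 0.166 to 0.335 FPKM, from 6 to 15 fragments, so its ratio rests on values near 0. It passed the filter of 0.5 FPKM only through the exposed libraries, at 0.510 to 1.37 FPKM. The gene ampd3b is among the 6 counted as higher at the unadjusted p and by voom. The adenylosuccinate synthases adss2 and adss1, which lead from inosine monophosphate towards AMP, were both higher. Another gene of this name, adssl, was at 35.8 to 49.2 FPKM in control and 23.2 to 34.9 FPKM with Lurasidone, with every exposed library below every control, and it did not pass the test (log2 difference -0.50, SE 0.20, adjusted p = 0.143). The level of adss2 went from 6.00 to 8.47 FPKM in control to 16.6 to 19.3 FPKM (log2 difference 1.25, SE 0.17, adjusted p = 0.0034). That of adss1 went from 19.4 to 25.6 FPKM to 40.1 to 48.1 FPKM (0.93, SE 0.16, adjusted p = 0.0100). The GMP reductase gene gmpr was at 3.94 ± 0.0862 FPKM in control and 6.46 ± 0.768 FPKM with Lurasidone (SD, n = 3 each, log2 difference 0.59, adjusted p = 0.0440). The more abundant gmpr2 went the other way, from 18.3 to 23.6 FPKM in control to 12.8 to 17.5 FPKM with Lurasidone. Every exposed library of gmpr2 was below every control, and it did not pass the test (log2 difference -0.46, SE 0.17, adjusted p = 0.12). The call of gmpr was lost in 8 of 16 alternative fits, with any 1 library left out, with the replicate block and with no filter, and gmpr also lies under a fold threshold of 1 on the log2 scale.

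Because ampd1 and tcap belong to muscle, the fast muscle markers are given beside them. Of the 6 listed, 5 were tested, 1 was higher (ckmb, log2 difference 0.94, adjusted p = 0.0489) and 0 were lower by limma, with 2 higher and 2 lower at an unadjusted p under 0.05 and 2 higher and 0 lower by voom. The ckmb call was lost in 8 of 16 alternative fits, namely without control replicate 1 or any 1 Lurasidone library, with the replicate block, no filter, a pseudocount of 0.1 and protein-coding genes only (adjusted p from 0.0517 to 0.207). Their summed level was 3211 to 4740 FPKM in control and 5287 to 5804 FPKM with Lurasidone, and mylpfa was near 0 in both groups. The sums were separate through ckmb alone, since without it they were 1731 to 2719 FPKM in control and 2028 to 2157 FPKM with Lurasidone. The markers acta1b (-0.52) and tnni2a.4 (-0.51) had every exposed library below every control and did not pass the test. The marker ckma (0.73, adjusted p = 0.105) had every exposed library above every control. It did not pass the limma test, but voom called it higher. The groups of tnnt3b (0.18) overlapped. The part of muscle RNA in these values was not tested.

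In purine salvage, 1 of 10 tested genes was higher and 0 were lower by limma and by voom, with 3 higher and 0 lower at an unadjusted p under 0.05. The called gene was ada, for the adenosine deaminase that forms inosine, a substrate of the phosphorylases. It was at 41.2, 32.0 and 48.7 FPKM in control and 78.4, 99.5 and 74.1 FPKM with Lurasidone, and the groups were separate. The log2 difference was 1.04 (SE 0.20, adjusted p = 0.0134). The call was lost when control replicate 1 was left out (adjusted p = 0.057). The gene hprt1l, a relative of the salvage enzyme that takes up hypoxanthine and guanine, gave 0.05 (adjusted p = 0.876).

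In purine breakdown, 2 of 13 tested genes were higher and 0 were lower by limma and by voom, with 3 higher and 0 lower at an unadjusted p under 0.05. Urate oxidase, encoded by uox, was at 21.6, 27.9 and 31.4 FPKM in control and 48.4, 75.9 and 52.1 FPKM with Lurasidone (log2 difference 1.08, SE 0.21, adjusted p = 0.0152, and 0.0714 without control replicate 1). The nucleotidase gene nt5c2b, whose product removes the phosphate from nucleotides, was at 10.9 to 13.8 FPKM in control and 19.1 to 21.7 FPKM with Lurasidone (0.68, SE 0.15, adjusted p = 0.0260). That call was lost without control replicate 1 or without any 1 Lurasidone library (adjusted p from 0.0567 to 0.117). The genes directly after the phosphorylase step did not pass the test. They were gda, for guanine deaminase (0.60, SE 0.23, adjusted p = 0.128), and xdh, for xanthine dehydrogenase (-0.25, SE 0.16, adjusted p = 0.328). The hepatocyte markers, given beside uox, had 0 of 5 higher and 1 lower by limma (cp, adjusted p = 0.0497, lost in 11 of 16 alternative fits), with 1 higher and 1 lower both at an unadjusted p under 0.05 and by voom. The log2 difference of cp was -1.01. The marker fabp10a (0.74, adjusted p = 0.0695) had every exposed library above every control and was the gene called higher by voom. The groups of tfa (0.36), serpina1 (0.04) and fgb (-0.04) overlapped. The summed level of the 5 hepatocyte markers was 549 to 817 FPKM in control and 707 to 926 FPKM with Lurasidone, and the part of liver RNA was not tested.

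Of the 6 tested pyrimidine phosphorylase and ribose phosphate genes 0 passed the limma test, with 3 higher at an unadjusted p under 0.05, and of the 6 tested nucleoside transporters 0 passed, with 0 at that unadjusted p. Limma voom on the fragments called 0 in either list. Their median log2 differences were 0.34 and 0.18. The gene nearest to the threshold was pgm2, which converts the ribose phosphate released by a phosphorylase, at 5.48 to 6.79 FPKM in control and 7.67 to 10.2 FPKM with Lurasidone (0.52, SE 0.17, adjusted p = 0.0806).

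**Figure D3:**
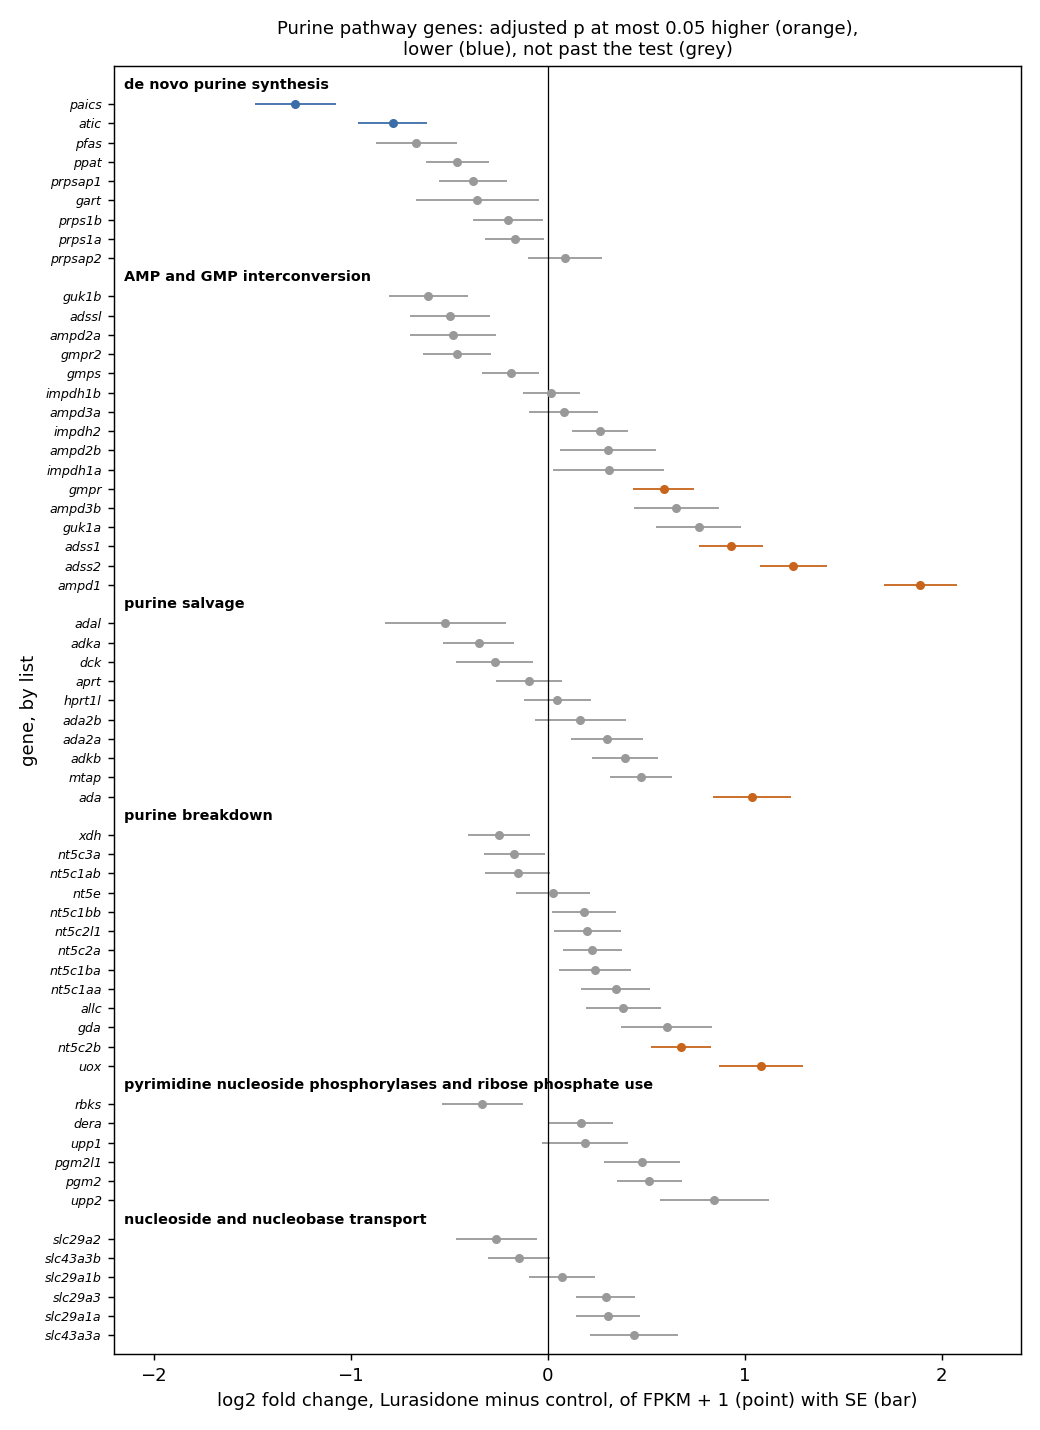
Log2 difference (Lurasidone minus control) of FPKM + 1 with its SE for the 60 tested purine pathway genes, grouped by list. Orange points passed the limma test as higher (7 genes, ampd1 at 1.89 the farthest), blue points as lower (2 genes, paics at -1.28 the farthest) and grey points did not pass.

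Several pathway genes were listed at or near 0 in their named row, while models on alternate contigs held fragments. These models were paired with a gene by a match to the same protein and a start within 100000 bases. Whether their fragments belong to the named gene was not tested. The gene adsl, of de novo synthesis, had 0 fragments in each library in its named row. The models beside it summed to 50.5, 58.3 and 35.9 FPKM in control and 30.3, 28.9 and 29.8 FPKM with Lurasidone. The exposed libraries lay below the controls, and the log2 difference of -0.66 (SE 0.19) did not pass the test (limma adjusted p = 0.0594). The gene hprt1, for the salvage of hypoxanthine and guanine, held 1 fragment in its named row in 1 library. With its alternate model it was at 3.08, 2.94 and 2.67 FPKM in control and 5.95, 7.37 and 4.96 FPKM with Lurasidone, higher by 0.85 on the log2 scale (SE 0.18, limma adjusted p = 0.0181). When the alternate models were added to all listed genes, 9 pathway genes were higher and 2 lower, with ampd3b (0.70, adjusted p = 0.0417) as the other gained call. Over all tested genes, 1359 were then higher and 913 lower. The genes adsl, hprt1, dguok, slc28a1 and tymp entered the test only through the addition, so these pathway counts are over more genes than the 60 above. This addition was chosen after the data had been seen, and it was not repeated with libraries left out.

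**Figure D4:**
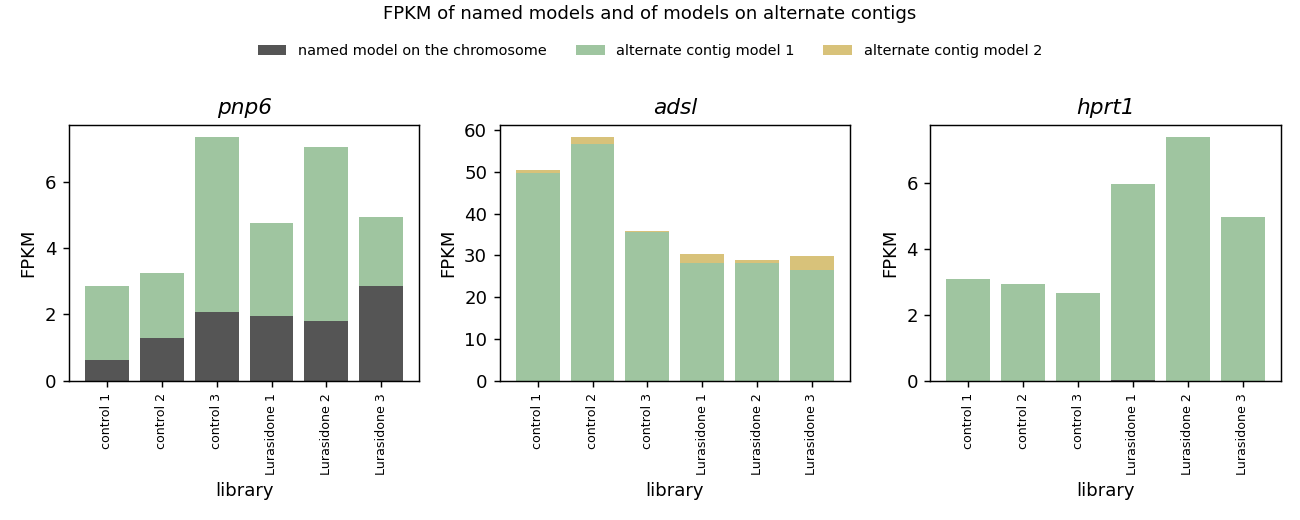
Stacked bars, starting at 0, of the FPKM of the named model (dark) and of models on alternate contigs (light) for pnp6, adsl and hprt1, with 1 bar per library and a separate scale for each gene. The named model held a part of the sum for pnp6 and almost none for adsl and hprt1.

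Since pnp4a is used as an iridophore gene, the other pigment cell markers were set beside it. Of 9 iridophore markers without pnp4a, 3 were higher and 0 lower with Lurasidone by limma, with 5 higher and 0 lower at an unadjusted p under 0.05 and 4 higher and 0 lower by voom, and 6 had every exposed library above every control. Over all tested genes, 5.79% were higher by limma, 14.1% were higher at that unadjusted p (and 14.1% lower), and 17.1% had every exposed library above. The markers' summed level was 87.5 to 108 FPKM in control and 115 to 154 FPKM with Lurasidone, and none was at 0. The gene gpnmb, for a transmembrane glycoprotein, was at 9.97 ± 2.78 FPKM in control and 26.7 ± 5.32 FPKM with Lurasidone (SD, n = 3 each, log2 difference 1.35, limma adjusted p = 0.0079). The receptor genes ltk (0.91, adjusted p = 0.0349) and ednrba (0.91, adjusted p = 0.0417) were the other 2. Both calls were lost without control replicate 1 or 2, without Lurasidone replicate 2 or 3 and with no filter, and that of ltk also with the replicate block (adjusted p from 0.076 to 0.11 for ltk and 0.078 to 0.141 for ednrba). With a filter of 5 FPKM, ltk was not tested. The level of ltk was 0.667, 0.357 and 0.620 FPKM in control and 1.19, 2.70 and 1.98 FPKM with Lurasidone. Since control replicate 2 was under 0.5 FPKM, ltk passed the main filter only with the help of the exposed libraries. The call of gpnmb held in all 16 alternative fits. The markers tfec (-0.02), apoda.1 (-0.01) and defbl1 (0.22) did not pass the test, although apoda.1 and defbl1 were the most abundant of the list. The part of iridophores in the pnp4a level was not tested.

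The other pigment cells gave other counts. Of 7 melanophore markers, 0 passed the limma test or voom, with 1 higher at an unadjusted p under 0.05, and their sum was 232 to 305 FPKM in control and 233 to 296 FPKM with Lurasidone. Of 4 xanthophore markers, 1 was lower and 0 higher by limma and by voom, beside 3.9% lower over all tested genes, with 1 lower and 1 higher at an unadjusted p under 0.05. Their median log2 difference was -0.05, with 2 above 0 and 2 below. The lower gene was gch2, for the first step of pteridine synthesis from GTP (log2 difference -0.89, SE 0.19, adjusted p = 0.0230). It was at 144, 134 and 146 FPKM in control and 79.2, 93.5 and 58.7 FPKM with Lurasidone. That call was lost without control replicate 1 or Lurasidone replicate 1 or 3 and with the replicate block (adjusted p from 0.0511 to 0.0903). The receptor gene csf1ra had every exposed library above every control (log2 difference 0.38) and did not pass the test (adjusted p = 0.163), nor did aox5 (-0.19) and pax7a (0.09). Higher calls were not particular to the iridophore list. Of 7 enterocyte markers of the gut, 3 were higher and 2 lower by limma, beside 5.79% higher and 3.9% lower over all tested genes. The calls of fabp6, anpepb and rbp2a among them were lost in 6 or 7 of 16 alternative fits. In the neuron, epidermis and leukocyte lists 0 were called.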

How the data were processed

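RNA of 5 dpf larvae was sequenced by the authors in 3 control and 3 Lurasidone libraries. The deposited table gives FPKM made by the authors, with gene length and position on GRCz11 (danRer11) per the labels. The aligner, the counting tool, its use of strand and the scaling are not given in the sources used here. Fragments per gene were read back from FPKM times length (100% of values whole within 0.1 fragment).

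Genes below 0.5 FPKM in more than 3 libraries were removed. For the others, limma 3.58.1 under R 4.3.3 fitted log2(FPKM + 1) on the group alone (lmFit, then eBayes with trend), at a threshold of adjusted p at most 0.05. A two-sided exact permutation test of 3 against 3 libraries cannot give a p below 0.1. The script was tested on simulated data with large changes and the same spread setting for all genes, which does not cover the smaller differences reported here. Figures were drawn with matplotlib 3.10.9.

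The genes and lists were chosen with earlier results of these data known. Named genes were the 5 phosphorylases, up to 3 genes per pathway list and direction by adjusted p, the 5 nearest patterns to pnp5a and the markers. The alternatives were the replicate block, quantile normalization, scaling by median ratios, voom on fragments, a pseudocount of 0.1, 2 other filters, protein-coding genes only, no variance trend, a fold threshold and leaving out each library. The addition of models on alternate contigs was chosen after seeing the data. Sequences of proteins and promoters were not used here.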

Additional observations from a re-analysis of the deposited data

How the results depend on the processing

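The log2 difference stayed within 0.52 to 0.78 for pnp4a, 1.22 to 1.68 for pnp5a and -0.76 to -0.25 for pnp5b, and the excess of pnp5a over its paralogs within 1.11 to 1.56. Of 67 recomputed differences, 65 kept their sign and moved by less than 1 SD, pooled from the spread within the groups. Leaving out 1 of 3 libraries cannot move a difference that far, and the replicate block cannot move it at all. For those fits the count therefore says nothing about stability. The log2 difference of pnp6 ran from 0.258 without control replicate 1 to 0.979 with voom on fragments. That of pnp4b ran from -0.384 to 0.032 with 1 library left out, reversed without control replicate 2. Over all genes the values were 1356 higher and 914 lower. These became 899 and 431 with no filter, 867 higher with a filter of 5 FPKM, and 610 and 286 with a log2 fold of at least 1, where the pathway lists had 4 and 1. With 1 library left out they ran from 512 to 1455 higher and 152 to 1412 lower, both lowest without control replicate 1, and the pathway lists from 3 to 7 higher and 1 to 3 lower. Voom called 1868 and 1006. The calls of adss1, adss2, ampd1 and paics held in all 16 alternative fits, and adss1 (0.93) lies under the fold threshold. With the replicate block 869 and 497 genes passed, 6 and 2 of them in the pathway lists. It changed the SE from 0.234 to 0.18 for pnp5a, 0.218 to 0.168 for pnp4b and 0.252 to 0.197 for pnp6. For pnp4a (0.172 and 0.174) and pnp5b (0.244 and 0.24) the SE hardly changed. Deviations of same-numbered libraries had r of 0.118, -0.103 and 0.006 across genes, and other pairs ran from -0.215 to 0.189. With 3 libraries per group these values cannot decide whether the numbers pair the libraries. The causes were not tested. The counts of pnp6, from 19 to 75 fragments, were the lowest of the 5 genes.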
